A study of Mus musculus with 12 samples.

Results

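The transcriptomes of Acod1-/- and WT bone marrow derived macrophages (BMDMs) were compared after exposure to particulate matter (PM). The comparison is between the means of 4 of the 12 libraries of the series, 2 from WT and 2 from Acod1-/- BMDMs, all treated with PM at 20 μg/cm2 for 24 hours. The other 8 libraries came from the same genotypes, 4 with vehicle and 4 with PM after 2 hours of pretreatment with 4-octyl itaconate (OI) at 0.25 mM, and were used to measure the genotype difference again. They also entered the model, in which the 12 libraries shared the estimate of the spread behind each SE and adjusted p. The PM was Urban Dust from NIST. Each gene was listed by its Ensembl identifier, and 10875 of 48795 genes had an abundance above 1.5 CPM (counts scaled by library size) in at least 2 of the 4 PM libraries and were tested.

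BMDMs are macrophages grown in culture from bone marrow cells with M-CSF, here for 8 to 10 days at 20 μg/L, from male mice of 7 to 11 weeks. The Acod1-/- mice were of the strain C57BL/6NJ-Acod1em1(IMPC)J/J. The WT strain was given as C57BL/6 by the labels and as C57BL/6NJ by the study's methods. The labels did not say whether the 2 libraries of a group came from separate mice or cultures, so that the p-values measure the spread between these libraries, which may be technical. The part of Acod1 that the allele lacks was not given in the sources used here.

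Acod1, also called Irg1, encodes the mitochondrial enzyme that makes itaconate from cis-aconitate, an intermediate of the tricarboxylic acid (TCA) cycle. It is strongly induced in macrophages by bacterial products and interferons. Itaconate inhibits succinate dehydrogenase and can modify cysteines of KEAP1, which releases the transcription factor NRF2, and of other proteins. The comparison asks what the endogenous metabolite contributes to the response to PM.

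Acod1 mRNA was counted in every library. The normalized level with PM was 181 and 170.3 CPM in WT and 107 and 94.1 CPM in Acod1-/- BMDMs, so that the libraries of the genotypes did not overlap. With vehicle it was 1.85 and 2.51 CPM in WT and 1.26 and 1.22 CPM in Acod1-/- BMDMs. The means with PM were 176 ± 7.45 against 101 ± 9.36 CPM (SD, n = 2), WT first. The difference did not pass the threshold of 0.05 in the quasi-likelihood test of edgeR, with p-values adjusted by the Benjamini-Hochberg procedure (log2 fold change -0.80, SE 0.20, adjusted p = 0.0757), while it passed in 6 of the other analyses, whose values stand in the closing section. Reads were counted over the whole gene (chromosome 14, 103046977 to 103056573, forward strand), so that transcripts lacking a deleted part would still be counted, and the level is no test of whether a functional transcript was made.

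The PM libraries held 34009208 to 35022765 counts on genes. All 16 macrophage markers were measured in every library, and their summed level was 26768 to 30789 CPM in WT and 28213 to 31102 CPM in Acod1-/- BMDMs. Of these only Adgre1, which encodes F4/80, differed (log2 fold change 0.53, SE 0.08, adjusted p = 0.00675), at an adjusted p of 0.0626 without WT replicate 2 and 0.0735 without Acod1-/- replicate 1, while with the gene length correction 3 of the markers were higher and in DESeq2 1 was higher and 1 lower. Summed markers of dendritic cells, B and T lymphocytes, mast cells and basophils, and of stromal, endothelial and erythroid cells were each at most 6.08 CPM. The summed level of 12 neutrophil markers was 352 to 372 CPM in WT and 310 to 314 CPM in Acod1-/- BMDMs, most of it Mmp8. Without Mmp8 the other 11 summed to 44.4 to 51.7 CPM in WT and 56.7 to 58.96 CPM in Acod1-/- BMDMs. Of the 12, 5 were tested, of which S100a9 rose (20%, against 2.46% of all genes tested). Its dependence on single libraries is given below. Ly6g, a defining marker, had a count of 0 in the 4 libraries. The 2 WT libraries differed from each other more than the 2 Acod1-/- libraries did, with a median difference of 0.16 against 0.09 on the log2 scale, and in WT the difference was correlated with the exonic length of the gene (Spearman's rank correlation across 10862 genes 0.62, against -0.37 in Acod1-/- BMDMs). The part of gene length in the results below was measured by a correction for it. In bulk RNA, fewer cells of a type and less RNA per cell cannot be told apart.

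The genotypes differed at few genes with PM. A gene counted as differentially expressed (DEG) when its adjusted p did not exceed 0.05 and its change reached 2-fold. There were 59 DEGs, 26 higher and 33 lower in Acod1-/- BMDMs, which is 0.543% of the genes tested (0.239% higher and 0.303% lower). When only the adjusted p was asked for, 268 genes changed (2.46%), of which 121 were higher (1.11%) and 147 lower (1.35%). When 1 of the 4 libraries was dropped at a time, 61 of the 268 genes passed every time, 102 failed in 1 to 3 of these analyses and 105 failed in all 4. Of all genes tested, 86.1% lay within 1.2-fold of no difference, and for 97.4% the 95% confidence interval stayed within 2-fold. The libraries of the genotypes did not overlap at any of the 59 DEGs, as at 40.4% of all genes tested. The mean level was at least 5 CPM for 25 DEGs and lower for 34. The exons of 17 DEGs overlapped those of another gene, as did those of Bcl3, Zfp36, Nfkb2, Irf1, Gbp7, Il16, Mmp12, Scd2, Ms4a6c, Acsl1, Ccnd1 and Ccnd2, and whether the counting used the strand was not stated. The DEGs with the smallest fold changes were Spp1 (log2 fold change -1.0003) and Ccl2 (-1.01) among the decreases and Ssc5d (1.01) among the increases, and just under 2-fold were Ramp1 (-0.98) and 2010300C02Rik (0.97).

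**Figure D1:**
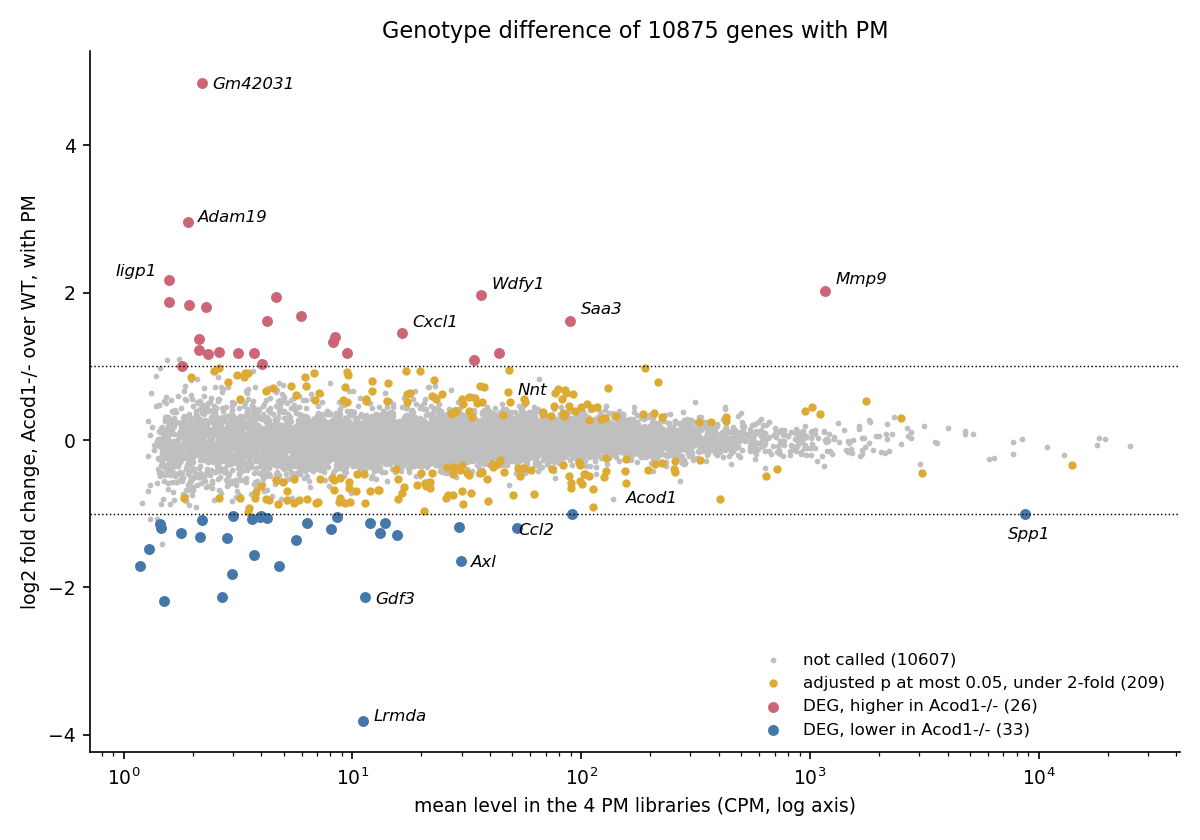
Log2 fold change of Acod1-/- over WT BMDMs with PM (vertical axis) against the mean level of the 4 PM libraries in CPM (log axis). Each point is a gene, and the dotted lines mark 2-fold: Mmp9 and Spp1 are DEGs of high level, and most of the 59 DEGs lie at lower levels.

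Of the secreted matrix proteases, Mmp9 had the largest difference of any DEG above 5 CPM among the increases. Mmp9 encodes gelatinase B, which macrophages secrete and which cleaves denatured collagen and chemokines. Its level was 481 and 439 CPM in WT and 1829.6 and 1923 CPM in Acod1-/- BMDMs, 4.08-fold higher without Acod1 (log2 fold change 2.03, SE 0.07, adjusted p = 1.69e-06; chromosome 2, 164940780 to 164955850, forward strand). Both Acod1-/- libraries were far above both WT libraries, and with vehicle the order was the same at 182 and 166 CPM in WT and 815 and 823 CPM in Acod1-/- BMDMs. Timp2, an inhibitor of these proteases, was also higher, at 154 and 162 CPM in WT and 276 and 272 CPM in Acod1-/- BMDMs (log2 fold change 0.79, SE 0.07, adjusted p = 0.000476). Mmp13, a collagenase, was lower at 524 and 503 CPM in WT and 296 and 291 CPM in Acod1-/- BMDMs (log2 fold change -0.80, SE 0.06, adjusted p = 8.33e-05). Mmp12, the macrophage elastase and the most abundant protease of the list, was lower by a smaller amount (log2 fold change -0.34, SE 0.06, adjusted p = 0.0200), as was Plaur, the urokinase receptor (log2 fold change -0.59, SE 0.11, adjusted p = 0.0235). Adam19, a membrane protease, rose from 19 and 11 counts in WT to 106 and 127 counts in Acod1-/- BMDMs (log2 fold change 2.97, SE 0.35, adjusted p = 0.00206), and its exons overlap those of Gm16033 and Gm16034. At 0.541 and 0.317 CPM in WT, Adam19 was tested through the Acod1-/- libraries alone. The filter of CPM above 1.5 in all 4 PM libraries excludes it. Of 20 members tested, 4 rose and 3 fell (35.0%, against 2.46% of all genes tested), and the median log2 fold change was -0.05 against 0.00 for all genes tested. With a library left out 3 or 4 rose and 1 or 2 fell, and the median was 0.02 without WT replicate 1. Without WT replicate 1, without WT replicate 2, without Acod1-/- replicate 1 or 2, or with the length correction, Mmp9, Timp2, Mmp13 and Adam19 stayed past the threshold, while the adjusted p of Mmp12 was 0.0705 to 0.184 in these analyses. The adjusted p of Plaur was 0.156 without WT replicate 2, 0.209 without Acod1-/- replicate 1 and 0.116 without Acod1-/- replicate 2.

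Mmp9 is also a product of osteoclasts, the bone-resorbing cells that arise from the same precursors. The summed level of 11 osteoclast markers was 1447 to 1485 CPM in WT and 2996 to 3060 CPM in Acod1-/- BMDMs, and Mmp9 was the highest of them. Without Mmp9 the other 10 summed to 1004 to 1008 CPM in WT and 1136 to 1166 CPM in Acod1-/- BMDMs. Acp5, tartrate-resistant acid phosphatase, rose (log2 fold change 0.70, SE 0.08, adjusted p = 0.00234), as did Dcstamp, which macrophage fusion requires (log2 fold change 0.56, SE 0.12, adjusted p = 0.0360). For Dcstamp the adjusted p was 0.0971 to 0.267 whichever library was left out. Ctsk, cathepsin K, was at 22.6 and 25.4 CPM in WT and 28.9 and 26.8 CPM in Acod1-/- BMDMs and did not pass (log2 fold change 0.21, adjusted p = 0.406), and Calcr, the calcitonin receptor, had a count of 0 in the 4 libraries. Whether such cells had a part in the Mmp9 difference was not tested.

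Some secreted acute-phase proteins and the chemokine Cxcl1, which are induced by inflammatory signals, were higher in Acod1-/- BMDMs. Saa3, the serum amyloid A that macrophages make, was at 42.7 and 45.1 CPM in WT and 138 and 132 CPM in Acod1-/- BMDMs (log2 fold change 1.62, SE 0.10, adjusted p = 5.07e-05). The Acod1-/- libraries lay 3.08-fold above WT with no overlap, and with vehicle the level was 2.43 CPM in WT and 4.81 CPM in Acod1-/- BMDMs on average. Cxcl1, a chemoattractant of neutrophils, was at 8.75 and 8.82 CPM in WT and 22.8 and 25.2 CPM in Acod1-/- BMDMs (log2 fold change 1.45, SE 0.18, adjusted p = 0.00304). Both genotypes had little Cxcl1 with vehicle, at 0.161 and 0.102 CPM in WT and 0.411 and 0.557 CPM in Acod1-/- BMDMs. Cp, the copper-carrying ferroxidase ceruloplasmin, was higher (log2 fold change 1.18, SE 0.19, adjusted p = 0.0106), but the adjusted p was 0.0949 without WT replicate 2 and 0.115 without Acod1-/- replicate 1, and its exons overlap those of Hps3. S100a9, an alarmin of low level here, rose (log2 fold change 0.94, SE 0.20, adjusted p = 0.0444), and the adjusted p was 0.115 without WT replicate 1, 0.203 without Acod1-/- replicate 1 and 0.236 without Acod1-/- replicate 2. Saa3 belongs to a family of similar genes, and how the authors' counting treated reads that fit several of them was not stated.

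Lcn2, a siderophore-binding protein, and Hp did not pass. Lcn2 was at 2.05 and 3.60 CPM in WT and 4.46 and 4.86 CPM in Acod1-/- BMDMs (log2 fold change 0.72, adjusted p = 0.234) and Hp, haptoglobin, at 12.3 and 16.6 CPM in WT and 25.0 and 20.9 CPM in Acod1-/- BMDMs (0.66, adjusted p = 0.0641). Spp1, osteopontin, a secreted adhesion protein listed with them, went the other way. It was at 10564 and 12628 CPM in WT and 6080.2 and 5514 CPM in Acod1-/- BMDMs, the highest level of any DEG (log2 fold change -1.0003, SE 0.10, adjusted p = 0.00110). Both Acod1-/- libraries were below both WT libraries. Without WT replicate 2 or without Acod1-/- replicate 2 the difference stayed past the adjusted p and was under 2-fold. Of 11 members tested, 3 rose and 1 fell (36.4%, against 2.46% of all genes tested), and the median log2 fold change was 0.29. Without WT replicate 1 or Acod1-/- replicate 2 the number that rose was 2, and without Acod1-/- replicate 1 it was 1, while it was 4 in DESeq2 and with the length correction and 5 when the replicate block was added to that correction. The Spp1 exons overlap those of Gm42793, which was also lower (log2 fold change -1.56, SE 0.30, adjusted p = 0.0266).

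The monocyte chemoattractants Ccl2 and Ccl7, which are neighbouring genes that recruit CCR2-bearing monocytes, were lower in Acod1-/- BMDMs. Ccl2 was at 107 and 137 CPM in WT and 63.1 and 58.3 CPM in Acod1-/- BMDMs (log2 fold change -1.01, SE 0.16, adjusted p = 0.00890), and Ccl7 at 35.9 and 45.7 CPM in WT and 17.4 and 18.4 CPM in Acod1-/- BMDMs (log2 fold change -1.18, SE 0.17, adjusted p = 0.00540). The lowest WT library was above both Acod1-/- libraries for each gene, but the 2 WT libraries also differed from each other. For Ccl2 the adjusted p was 0.0596 without WT replicate 2, 0.0810 without Acod1-/- replicate 1 and 0.112 without Acod1-/- replicate 2. For Ccl7 the adjusted p was 0.0810 without Acod1-/- replicate 1 and 0.0646 without Acod1-/- replicate 2. Of 9 CC chemokines tested, these 2 fell and none rose (22.2%, against 2.46% of all genes tested), with a median log2 fold change of -0.21. The median was -0.38 without WT replicate 1 and -0.01 without WT replicate 2, and DESeq2, total count scaling and the length correction called 1 member higher. With the length correction 3 fell, without WT replicate 2 1 fell, and without either Acod1-/- replicate none did. Ccl3 (-0.36, adjusted p = 0.378), Ccl4 (-0.21, adjusted p = 0.722) and Ccl5 (0.22, adjusted p = 0.615) did not pass.

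Of 8 CXC chemokines tested, Cxcl1 rose and none fell (12.5%, against 2.46% of all genes tested), with a median log2 fold change of 0.20. The number that rose was 2 without WT replicate 2 or with the length correction, and 3 when the replicate block was added to that correction. Cxcl2, whose product acts on the same receptor as that of Cxcl1, did not pass, at 125 and 121 CPM in WT and 133 and 124 CPM in Acod1-/- BMDMs (log2 fold change 0.07, SE 0.23, adjusted p = 0.918). Its 95% confidence interval ran from -0.44 to 0.57 and lay below the fold change of Cxcl1. Cxcl10, an interferon-induced chemokine, was at 9.57 and 15.5 CPM in WT and 17.5 and 17.6 CPM in Acod1-/- BMDMs (log2 fold change 0.49, SE 0.19, adjusted p = 0.280). Among receptors, Ccr3 was higher (log2 fold change 0.72, SE 0.08, adjusted p = 0.00143), and Ccr1 (log2 fold change -0.40, SE 0.08, adjusted p = 0.0229) and Ccr2, the receptor of Ccl2 and Ccl7 (log2 fold change -0.82, SE 0.15, adjusted p = 0.0188), were lower. For Ccr2 the adjusted p was 0.100 without WT replicate 1, 0.163 without Acod1-/- replicate 1 and 0.127 without Acod1-/- replicate 2, and for Ccr1 it was 0.0605 to 0.205 whichever library was left out. Of 15 chemoattractant receptors tested, 1 rose and 2 fell (20.0%, against 2.46% of all genes tested), with a median of 0.18. The median was 0.08 without Acod1-/- replicate 1, and no member fell without WT replicate 1 or without either Acod1-/- replicate. The number that rose was 3 in DESeq2 and with the length correction and 2 with the replicate block.

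**Figure D2:**
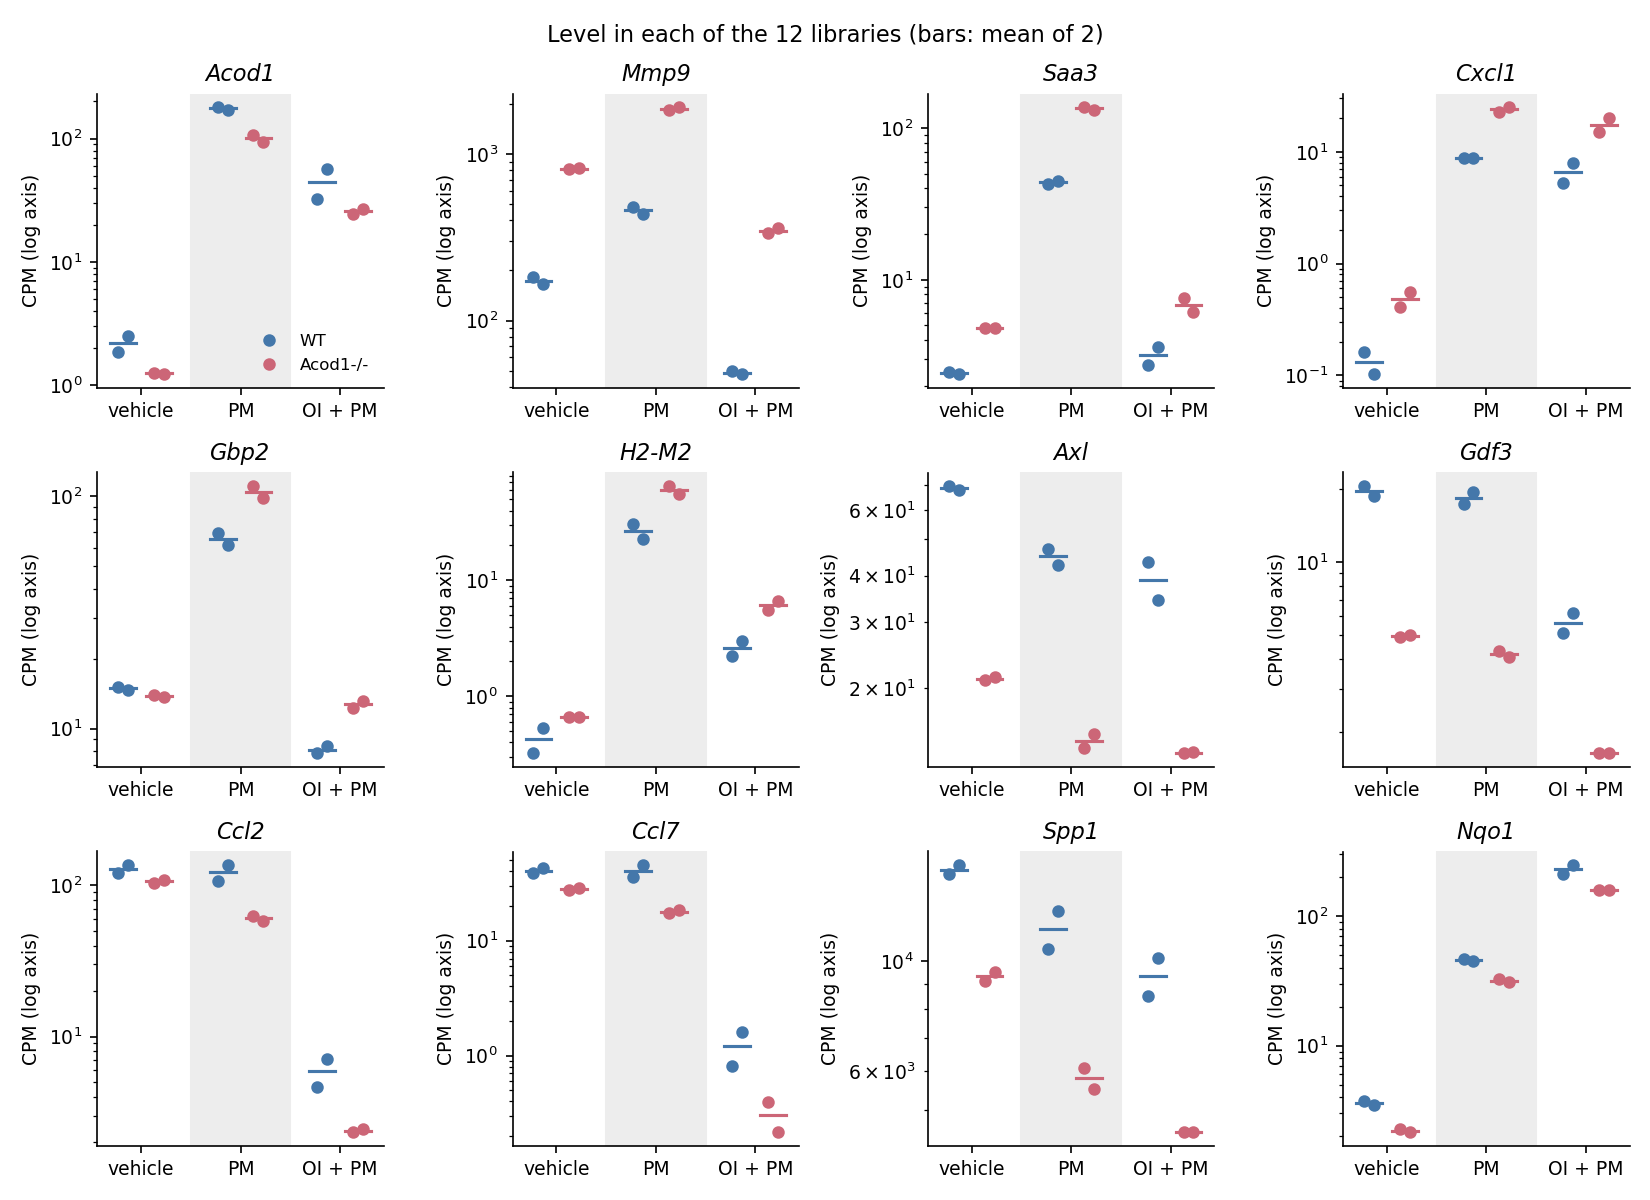
Normalized level in CPM (log axis) of 12 genes in each of the 12 libraries, by treatment, with WT in blue and Acod1-/- in red; bars are the mean of 2 libraries and the PM libraries are shaded. Mmp9, Saa3 and Cxcl1 lie higher and Axl and Gdf3 lower in Acod1-/- BMDMs in all 3 treatments, while Gbp2 lies higher with PM and not with vehicle.

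Of the proinflammatory cytokines, 1 passed the test with PM. Tnf was at 69.1 and 70.3 CPM in WT and 69.8 and 66.1 CPM in Acod1-/- BMDMs (log2 fold change -0.04, SE 0.15, adjusted p = 0.935), with a 95% confidence interval from -0.37 to 0.29. Il1b was at 11.5 and 12.02 CPM in WT and 16.3 and 14.6 CPM in Acod1-/- BMDMs (log2 fold change 0.39, SE 0.13, adjusted p = 0.174). All 4 libraries held Il1b, and those of Acod1-/- BMDMs were higher, but the difference did not pass. It passed with the gene length correction (log2 fold change 0.43, adjusted p = 0.0341), and Il1b shares exonic sequence with Il1bos. With OI and PM Il1b was lower in Acod1-/- BMDMs, at 2.22 and 3.02 CPM in WT and 1.24 and 1.60 CPM in Acod1-/- BMDMs (log2 fold change -0.88, adjusted p = 0.0300). With vehicle it was below 1 CPM in every library (-0.08). With PM, Il6 had 16 and 17 counts in WT and 32 and 37 counts in Acod1-/- BMDMs, and Nos2, inducible nitric oxide synthase, 12 and 11 against 27 and 17 counts. Both were below the level at which genes were tested. Of 13 cytokine genes tested, 1 fell (7.69%, against 2.46% of all genes tested), Il16, whose product attracts CD4+ cells (log2 fold change -0.45, SE 0.09, adjusted p = 0.0375), and its adjusted p was 0.0535 to 0.295 with 1 of the 4 libraries left out. It did not pass with the replicate block either (adjusted p = 0.0516), when no member of the list fell, nor with the length correction (adjusted p = 0.0619) or on the 4 libraries alone in edgeR (adjusted p = 0.121) or DESeq2 (adjusted p = 0.0858). The median log2 fold change was -0.04, and -0.08 to 0.01 with a library left out.

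A few genes of the NF-kB pathway and its feedback loop were higher in Acod1-/- BMDMs, each by less than 2-fold. NF-kB dimers of the Rel family are held in the cytoplasm by IkB proteins and, once released, induce cytokines together with their own inhibitors. Of 27 members tested, 4 rose and none fell (14.8%, against 2.46% of all genes tested), and the median log2 fold change was 0.19. They were Icam1, an adhesion molecule, at 85.7 and 91.0 CPM in WT and 127 and 121 CPM in Acod1-/- BMDMs (log2 fold change 0.49, SE 0.08, adjusted p = 0.0114), Zfp36, which destabilizes cytokine mRNAs (log2 fold change 0.35, SE 0.06, adjusted p = 0.0132), Nfkb2, a subunit of the noncanonical pathway (log2 fold change 0.40, SE 0.07, adjusted p = 0.0229), and Bcl3, a nuclear IkB protein (log2 fold change 0.60, SE 0.13, adjusted p = 0.0438). Nfkbia, the IkB alpha inhibitor, was at 153 and 167 CPM in WT and 158 and 162 CPM in Acod1-/- BMDMs (log2 fold change 0.00). Nfkbiz, which encodes IkB zeta, was at 12.4 and 11.9 CPM in WT and 14.3 and 16.8 CPM in Acod1-/- BMDMs (0.36, adjusted p = 0.106), and Atf3, a repressor of inflammatory genes, at 415 and 439 CPM in WT and 435 and 429 CPM in Acod1-/- BMDMs (0.02, adjusted p = 0.922). With vehicle the median of the list was 0.08 and 1 member rose, while with OI and PM it was -0.10, 0 rose and 2 fell. With PM the log2 fold change was above 0 for 25 of 27 members, against 5444 of all 10875 genes tested. Without WT replicate 1 it was above 0 for 19 members. With a library left out, 0 or 1 members rose, and in DESeq2 or with the length correction 5 did. The adjusted p of Icam1 was 0.0513 to 0.127 whichever library was left out, that of Nfkb2 0.0660 to 0.184 whichever library was left out, that of Bcl3 0.152 to 0.271 whichever library was left out and that of Zfp36 0.0840 without WT replicate 1, 0.0714 without Acod1-/- replicate 1 and 0.131 without Acod1-/- replicate 2.

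Interferon-stimulated genes are switched on by STAT and IRF transcription factors and encode antiviral and antimicrobial proteins. Of 60 members tested, 7 rose and none fell in Acod1-/- BMDMs (11.7%, against 2.46% of all genes tested), and the median log2 fold change was 0.12. They were the guanylate-binding proteins Gbp2, Gbp3, Gbp5 and Gbp7, the related GTPase Iigp1, Irf1 itself and Ifi205. Gbp2 was at 69.7 and 61.7 CPM in WT and 111 and 98.4 CPM in Acod1-/- BMDMs (log2 fold change 0.67, SE 0.08, adjusted p = 0.00304), and its exon overlaps the microRNA gene Mir6381. Gbp5 was at 9.23 and 8.45 CPM in WT and 15.1 and 15.7 CPM in Acod1-/- BMDMs (log2 fold change 0.80, SE 0.16, adjusted p = 0.0342). Gbp3 (0.56, adjusted p = 0.0378) and Gbp7 (0.62, adjusted p = 0.0385) rose by like amounts. Irf1 was at 93.9 and 94.9 CPM in WT and 131 and 123 CPM in Acod1-/- BMDMs (log2 fold change 0.43, SE 0.06, adjusted p = 0.00622). Iigp1 rose from 21 and 19 counts in WT to 85 and 94 counts in Acod1-/- BMDMs (log2 fold change 2.17, SE 0.25, adjusted p = 0.00177), and Gm4951, a related GTPase gene, from 41 and 30 to 115 and 130 counts (log2 fold change 1.80, SE 0.19, adjusted p = 0.00134). Both genes were below 1.5 CPM in WT, Iigp1 at 0.598 and 0.548 CPM, so that they were tested through the Acod1-/- libraries alone. The filter of CPM above 1.5 in all 4 PM libraries excludes them.

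Ifit1, Isg15 and Mx1, antiviral genes typical of type I interferon, did not pass. Ifit1 was at 36.4 and 43.4 CPM in WT and 52.7 and 49.1 CPM in Acod1-/- BMDMs (log2 fold change 0.35, adjusted p = 0.213), Isg15 at 28.1 and 33.8 CPM in WT and 35.8 and 33.2 CPM in Acod1-/- BMDMs (0.16, adjusted p = 0.685) and Mx1 at 19.3 and 19.3 CPM in WT and 20.1 and 17.9 CPM in Acod1-/- BMDMs (-0.02, adjusted p = 0.934). With a library left out, 2 to 4 members of the list rose, and with the length correction 10 did. The median was 0.07 without Acod1-/- replicate 1. Gbp3, Gbp5 and Ifi205 failed whichever library was left out. Gbp7 failed without WT replicate 2 or either Acod1-/- replicate, and Irf1 without Acod1-/- replicate 1. Gbp2 passed each time. Iigp1 did so too, but it entered the test through the Acod1-/- libraries alone, so that nothing is read from its passing. The receptor chains Ifngr1 (log2 fold change 0.37, SE 0.05, adjusted p = 0.00449) and Ifnar1 (log2 fold change 0.36, SE 0.07, adjusted p = 0.0294) were higher by a small amount and were named after their values were seen. For Ifngr1 the adjusted p was 0.0627 without Acod1-/- replicate 1, and for Ifnar1 it was 0.196 without WT replicate 2, 0.112 without Acod1-/- replicate 1 and 0.231 without Acod1-/- replicate 2.

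The promoters of Cxcl1, Saa3 and Gbp2 are shown because these genes, from 3 of the groups above, were higher in Acod1-/- BMDMs with PM and had a higher level with PM than with vehicle in every library of both genotypes. Each sequence runs from 250 bases before to 50 bases after the annotated start site in RefSeq (GRCm38.p6), on the strand of the gene. Of the 59 DEGs, 38 had a promoter in that table by symbol. Capitals mark matches, on either strand, to the kappa-B consensus by its name, the interferon-stimulated response element by its name, the C/EBP consensus TTGCNNAA, the AP-1 consensus TGANTCA and the antioxidant response element TGACNNNGC.
Cxcl1, chr5:90890995-90891294, forward: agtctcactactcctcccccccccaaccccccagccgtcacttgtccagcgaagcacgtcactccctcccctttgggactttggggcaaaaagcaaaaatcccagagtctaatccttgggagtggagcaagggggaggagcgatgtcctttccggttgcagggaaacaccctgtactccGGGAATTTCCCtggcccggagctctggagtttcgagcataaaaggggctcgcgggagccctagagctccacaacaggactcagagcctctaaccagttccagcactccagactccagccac
Saa3, chr7:46715627-46715926, reverse: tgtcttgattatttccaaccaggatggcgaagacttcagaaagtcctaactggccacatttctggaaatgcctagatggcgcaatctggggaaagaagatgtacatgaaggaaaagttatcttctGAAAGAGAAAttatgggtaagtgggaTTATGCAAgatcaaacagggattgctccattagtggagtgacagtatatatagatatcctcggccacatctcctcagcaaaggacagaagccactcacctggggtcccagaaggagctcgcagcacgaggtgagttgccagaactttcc
Gbp2, chr3:142620413-142620712, forward: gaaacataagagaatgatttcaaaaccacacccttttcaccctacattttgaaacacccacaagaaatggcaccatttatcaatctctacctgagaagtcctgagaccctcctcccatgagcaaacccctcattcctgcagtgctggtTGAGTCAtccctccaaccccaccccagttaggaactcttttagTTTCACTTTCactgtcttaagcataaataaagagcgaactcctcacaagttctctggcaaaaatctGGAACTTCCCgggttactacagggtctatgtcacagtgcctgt
In Cxcl1 the capitals are kappa-B matches on both strands that overlap, the first beginning 71 bases before the start site. In Saa3 they are an interferon-stimulated response element and a C/EBP match, and in Gbp2 an AP-1 match, an interferon-stimulated response element, and a kappa-B match that begins 7 bases after the start site. Of 32841 promoters of this length, 8.46% held a kappa-B match, 3.44% an interferon-stimulated response element, 10.8% a C/EBP match, 7.81% an AP-1 match and 12.4% an antioxidant response element. A match of letters is a description and not a site shown to be bound.

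**Figure D3:**
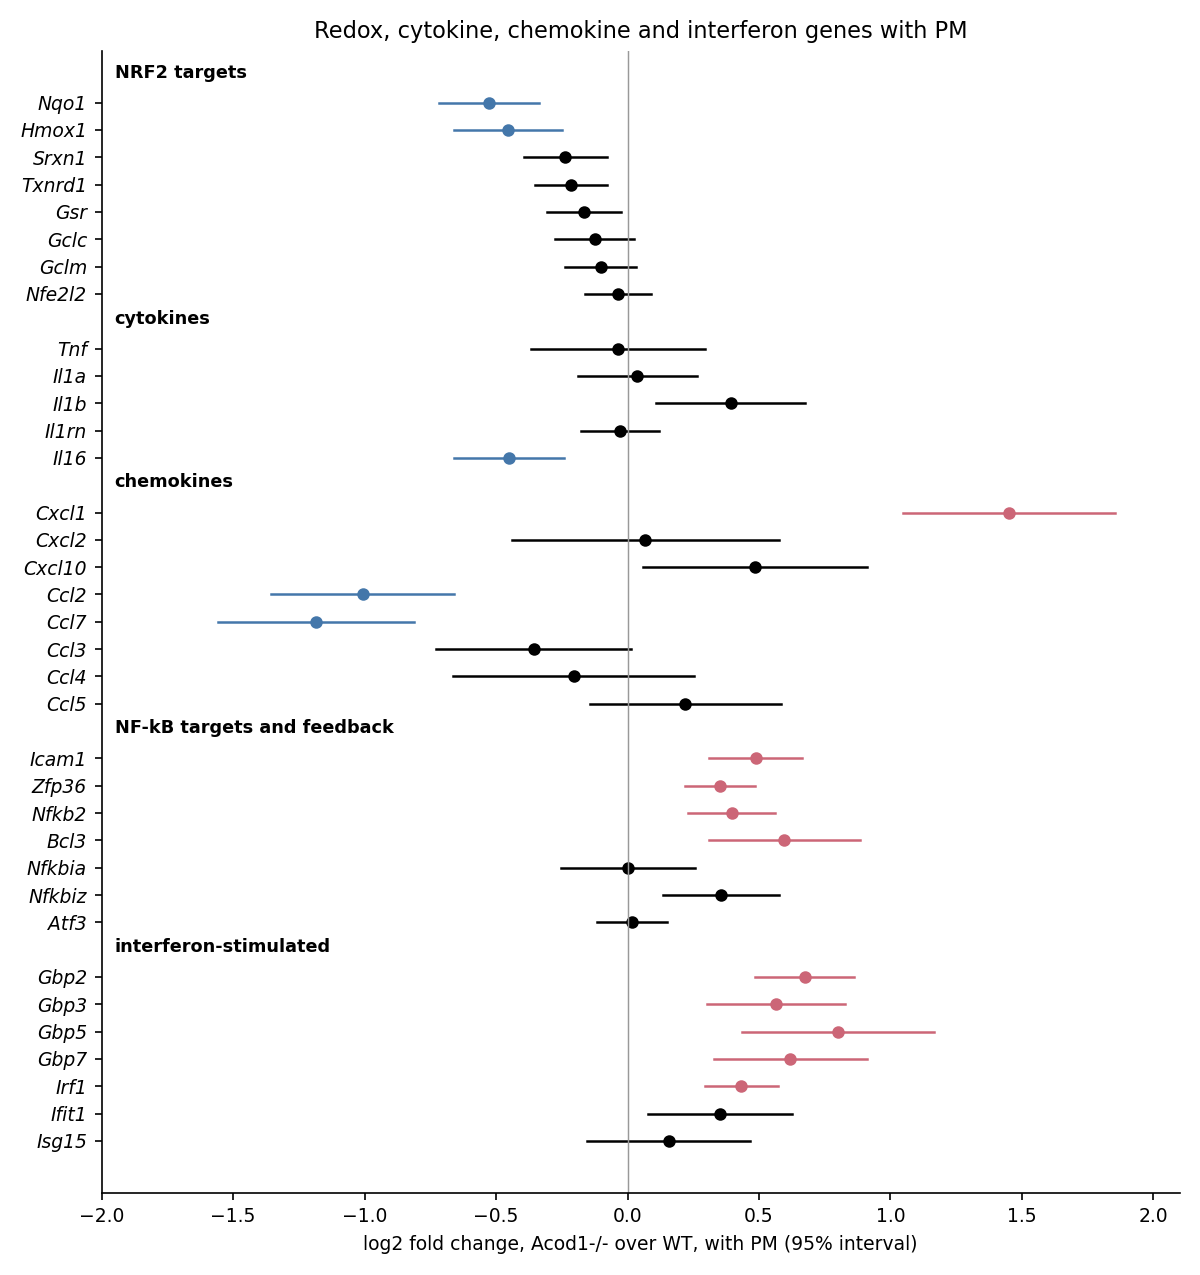
Log2 fold change of Acod1-/- over WT BMDMs with PM (points) with its 95% confidence interval (lines) for 35 genes in 5 groups; red and blue mark genes that rose or fell at an adjusted p of at most 0.05, black those that did not pass. Cxcl1 lies to the right and Ccl2 and Ccl7 to the left of the other chemokines, and the intervals of Tnf, Nfkbia and Atf3 span 0.

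NRF2 is a transcription factor that induces antioxidant and detoxifying enzymes once it escapes KEAP1. Nqo1, the quinone reductase that is its classical target, was lower in Acod1-/- BMDMs at 46.8 and 44.8 CPM in WT and 32.6 and 31.0 CPM in Acod1-/- BMDMs (log2 fold change -0.53, SE 0.09, adjusted p = 0.0108). The libraries did not overlap, and with vehicle Nqo1 was at 3.73 and 3.48 CPM in WT and 2.28 and 2.14 CPM in Acod1-/- BMDMs. Hmox1, heme oxygenase 1, was at 3363 and 3782 CPM in WT and 2618 and 2599 CPM in Acod1-/- BMDMs (log2 fold change -0.45, SE 0.09, adjusted p = 0.0328). Each fell by less than 2-fold. For Nqo1 the adjusted p was 0.0510 to 0.123 whichever library was left out. For Hmox1 the adjusted p was 0.207 without WT replicate 2, 0.204 without Acod1-/- replicate 1 and 0.223 without Acod1-/- replicate 2. Gclm, the regulatory subunit of glutamate-cysteine ligase, was at 497 and 479.9 CPM in WT and 457 and 453 CPM in Acod1-/- BMDMs (log2 fold change -0.10, SE 0.06, adjusted p = 0.508), and shares exonic sequence with other annotated genes. Nfe2l2, which encodes NRF2, was at 414 and 420.0 CPM in WT and 423 and 391 CPM in Acod1-/- BMDMs (log2 fold change -0.03, SE 0.06, adjusted p = 0.831). Its interval ran from -0.16 to 0.09. Srxn1, sulfiredoxin (-0.24, adjusted p = 0.140), and Txnrd1, thioredoxin reductase (-0.22, adjusted p = 0.117), did not pass. Of 28 members tested, 2 fell and none rose (7.14%, against 2.46% of all genes tested), with a median log2 fold change of -0.09. The log2 fold change was below 0 for 22 of them, against 5431 of all 10875 genes tested, and for 17 of them without WT replicate 2. With the length correction 3 members fell. No member passed without WT replicate 2 or without either Acod1-/- replicate, and the median was -0.13 to -0.04 with a library left out.

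Genes of glutathione synthesis and use and of the TCA cycle did not pass in the edgeR fit used throughout. Of all 10875 genes tested, 1543 had an unadjusted p under 0.05 in that fit. Of 30 glutathione genes tested, 0 changed, with 7 at an unadjusted p under 0.05, 1 called by DESeq2 and a median log2 fold change of -0.10. In edgeR 1 fell with total count scaling or without WT replicate 1 and 2 with the length correction, and the median was -0.18 without WT replicate 1 and -0.05 without WT replicate 2. The lowest value was that of Gstm5, a glutathione transferase (-0.76, adjusted p = 0.0926). Of 28 genes for the enzymes and carriers around itaconate, 0 changed, with 3 at an unadjusted p under 0.05, 1 called by DESeq2 and a median of -0.07. Succinate dehydrogenase, the enzyme that itaconate inhibits, has 4 subunits. Sdha was at 280.4 and 289 CPM in WT and 303 and 282 CPM in Acod1-/- BMDMs (0.04, adjusted p = 0.818), and the values of Sdhb, Sdhc and Sdhd were 0.07, -0.02 and -0.07. Of the TCA cycle list 23 members were below 0, against 5431 of all 10875 genes tested. Without WT replicate 2, 14 members were below 0 and the median was 0.00. Acod1, a member of that list, passed in the analyses named above.

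Of the receptors for the uptake of dying cells and particles, a few were lower in Acod1-/- BMDMs and most did not pass. Axl, a TAM receptor tyrosine kinase that binds dying cells through GAS6, was at 47.2 and 42.8 CPM in WT and 13.8 and 15.1 CPM in Acod1-/- BMDMs, 3.11-fold lower without Acod1 (log2 fold change -1.64, SE 0.11, adjusted p = 6.47e-05; chromosome 7, 25757273 to 25788705, reverse strand). With vehicle it was at 69.5 and 67.7 CPM in WT and 21.1 and 21.4 CPM in Acod1-/- BMDMs. Mertk, its relative, was at 80.0 and 64.9 CPM in WT and 79.9 and 87.4 CPM in Acod1-/- BMDMs and did not pass (0.21, adjusted p = 0.684), and Gas6 was at 155 and 171 CPM in WT and 157 and 165 CPM in Acod1-/- BMDMs (-0.02, adjusted p = 0.911). Cd300lf, an inhibitory receptor that binds phospholipids of dying cells, fell (log2 fold change -1.07, SE 0.14, adjusted p = 0.00430), but the adjusted p was 0.0616 without Acod1-/- replicate 2. Of 20 members tested, 2 fell and none rose (10%, against 2.46% of all genes tested), with a median log2 fold change of 0.05, and in DESeq2 or with the length correction 1 rose. Marco, a scavenger receptor that binds inhaled particles, was at 137 and 157 CPM in WT and 79.9 and 77.1 CPM in Acod1-/- BMDMs (log2 fold change -0.91, SE 0.12, adjusted p = 0.00449), and the adjusted p was 0.0627 without Acod1-/- replicate 1 and 0.0673 without Acod1-/- replicate 2. Colec12, a scavenger receptor with a C-type lectin domain, was at 40.3 and 38.5 CPM in WT and 21.8 and 21.5 CPM in Acod1-/- BMDMs (log2 fold change -0.86, SE 0.10, adjusted p = 0.00177). The C-type lectin receptor Clec4a3 rose (log2 fold change 0.51, SE 0.08, adjusted p = 0.0106), and the adjusted p was 0.0935 without WT replicate 2 and 0.130 without Acod1-/- replicate 1. Cd36, the most abundant scavenger receptor here, was at 8039 and 7534 CPM in WT and 7709 and 7526 CPM in Acod1-/- BMDMs (-0.03, adjusted p = 0.879). Of 22 scavenger receptors and lectins tested, 1 rose and 2 fell (13.6%, against 2.46% of all genes tested), with a median of -0.03, and -0.07 to 0.01 with a library left out. DESeq2 called 4 higher and 5 lower, and with a library left out 0 or 1 rose and 1 or 2 fell.

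The MS4A family encodes membrane proteins with several spans, expressed in immune cells from a cluster on chromosome 19. All 7 members tested had a log2 fold change above 0, as did 5444 of all 10875 genes tested. The 7 members kept that sign under each scaling and with each library left out. The median was 0.64, and 0.32 without Acod1-/- replicate 1. Ms4a4a was at 3.33 and 2.33 CPM in WT and 8.68 and 9.60 CPM in Acod1-/- BMDMs (log2 fold change 1.69, SE 0.21, adjusted p = 0.00304), Ms4a6b at 28.8 and 25.5 CPM in WT and 47.2 and 43.3 CPM in Acod1-/- BMDMs (log2 fold change 0.74, SE 0.08, adjusted p = 0.00143) and Ms4a6c at 70.4 and 63.8 CPM in WT and 111 and 98.4 CPM in Acod1-/- BMDMs (log2 fold change 0.64, SE 0.09, adjusted p = 0.00622). These 3 rose (42.9%, against 2.46% of all genes tested). DESeq2 and the length correction called 4. For Ms4a6c the adjusted p was 0.0596 without WT replicate 2 and 0.0729 without Acod1-/- replicate 1. The members are similar in sequence, Ms4a6b shares exonic sequence with Gm19261, and reads that fit several members could have been counted in different ways.

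Among genes of lipid handling, 4 of 39 rose and 4 fell (20.5%, against 2.46% of all genes tested), with a median log2 fold change of -0.06. Gdf3, a TGF-beta family ligand made by macrophages as a target of PPAR gamma, was at 17.5 and 19.5 CPM in WT and 4.31 and 4.08 CPM in Acod1-/- BMDMs, 4.40-fold lower (log2 fold change -2.14, SE 0.11, adjusted p = 3.15e-05). Fabp4, a fatty acid-binding protein and PPAR gamma target, was at 127 and 149 CPM in WT and 88.5 and 86.3 CPM in Acod1-/- BMDMs (log2 fold change -0.66, SE 0.08, adjusted p = 0.00318). Gdf15, a stress-induced ligand (-0.74, adjusted p = 0.0245), and Angptl4, an inhibitor of lipoprotein lipase (-0.58, adjusted p = 0.0157), also fell. Pparg itself was at 26.6 and 28.3 CPM in WT and 22.7 and 21.8 CPM in Acod1-/- BMDMs (-0.30, adjusted p = 0.0556). Of the targets of the sterol receptor LXR, Abca1, the cholesterol exporter, was at 152 and 105 CPM in WT and 244 and 260.0 CPM in Acod1-/- BMDMs (log2 fold change 0.97, SE 0.19, adjusted p = 0.0263), Mylip, which degrades the LDL receptor, at 26.2 and 24.4 CPM in WT and 33.8 and 37.0 CPM in Acod1-/- BMDMs (log2 fold change 0.49, SE 0.09, adjusted p = 0.0200), and Pltp, phospholipid transfer protein, at 71.6 and 77.8 CPM in WT and 101 and 104 CPM in Acod1-/- BMDMs (log2 fold change 0.46, SE 0.08, adjusted p = 0.0130). Scd2, a fatty acid desaturase, rose as well (0.64, adjusted p = 0.0200). Abcg1 (0.24, adjusted p = 0.374) and Srebf1 (0.05, adjusted p = 0.820) did not pass. The Pltp exons overlap those of Ctsa. With a library left out, 0 or 1 members rose and 2 or 3 fell, and the median was -0.02 without WT replicate 1 and -0.13 without WT replicate 2. With the length correction 4 rose and 6 fell. Mylip, Scd2 and Gdf15 failed whichever library was left out. For Abca1 the adjusted p was 0.138 without WT replicate 2, 0.131 without Acod1-/- replicate 1 and 0.184 without Acod1-/- replicate 2. The adjusted p of Pltp was 0.0849 without WT replicate 1, 0.0832 without Acod1-/- replicate 1 and 0.123 without Acod1-/- replicate 2, and that of Angptl4 0.116 without WT replicate 2, 0.152 without Acod1-/- replicate 1 and 0.120 without Acod1-/- replicate 2. Gdf3 and Fabp4 passed each time.

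The next 5 lists had 0 to 3 changed members each. Of 31 glycolytic and HIF-1 genes 1 fell (3.23%, against 2.46% of all genes tested), Egln3, an oxygen-sensing prolyl hydroxylase (log2 fold change -0.45, SE 0.09, adjusted p = 0.0345), at an adjusted p of 0.116 to 0.263 whichever library was left out. Of 21 AP-1 and immediate early genes, Junb rose (log2 fold change 0.45, SE 0.10, adjusted p = 0.0469) and Myc (log2 fold change -0.66, SE 0.08, adjusted p = 0.00349) and Batf (log2 fold change -0.78, SE 0.16, adjusted p = 0.0330) fell, and the exons of Junb overlap those of Prdx2. The adjusted p of Junb was 0.0802 to 0.348 whichever library was left out, and that of Batf 0.118 to 0.239 whichever library was left out, while Myc passed each time. Of 14 genes of alternative activation, Flt1, a receptor for VEGF, rose (log2 fold change 1.19, SE 0.17, adjusted p = 0.00540), and the adjusted p was 0.0558 without Acod1-/- replicate 2. Of 10 genes of MHC class II presentation, 0 changed in edgeR, 0 in DESeq2 and 0 at an unadjusted p under 0.05. Of 8 targets of the aryl hydrocarbon receptor, which senses hydrocarbons of combustion, Nqo1 alone fell, and Ahrr, its repressor, was at 18.5 and 13.8 CPM in WT and 26.8 and 26.5 CPM in Acod1-/- BMDMs (0.72, adjusted p = 0.0579). The shares changed were 14.3% (AP-1), 7.14% (alternative activation) and 12.5% (aryl hydrocarbon receptor), against 2.46% of all genes tested. In lists of 8 to 21 members, 1 gene is a larger share than that of all genes tested, and nothing is read from these counts. The same holds for other short lists with 1 changed gene, among them the CXC chemokines, the cytokines, the neutrophil markers and the genes near Acod1. The medians of the 5 lists of this paragraph lay between -0.06 and 0.00. With a library left out they lay between -0.06 and 0.13, the highest being that of the aryl hydrocarbon receptor list without WT replicate 1.

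Of 16 markers of proliferating cells, each had a log2 fold change below 0, against 5431 of all 10875 genes tested. The median was -0.21, and 15 or 16 markers were below 0 under the other analyses. The number that fell was 2 (12.5%, against 2.46% of all genes tested), and it was 5 in DESeq2, 4 with the length correction, 1 with total count scaling or the replicate block, 1 without WT replicate 1 and 0 with any of the other 3 libraries left out. Mcm3 (log2 fold change -0.34, SE 0.06, adjusted p = 0.0210) and Rrm2 (log2 fold change -0.38, SE 0.08, adjusted p = 0.0391) fell. The adjusted p of Mcm3 was 0.0501 to 0.181 whichever library was left out, and that of Rrm2 0.0821 to 0.241 whichever library was left out. Their summed level was 1335 to 1380 CPM in WT and 1151 to 1166 CPM in Acod1-/- BMDMs. The cyclins Ccnd1 (-0.43, adjusted p = 0.0230) and Ccnd2 (-0.65, adjusted p = 0.0163), named after their values were seen, were also lower. For Ccnd1 the adjusted p was 0.0927 without WT replicate 1, 0.106 without WT replicate 2 and 0.183 without Acod1-/- replicate 1, and for Ccnd2 it was 0.0921 without WT replicate 1 and 0.158 without Acod1-/- replicate 1.

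**Figure D4:**
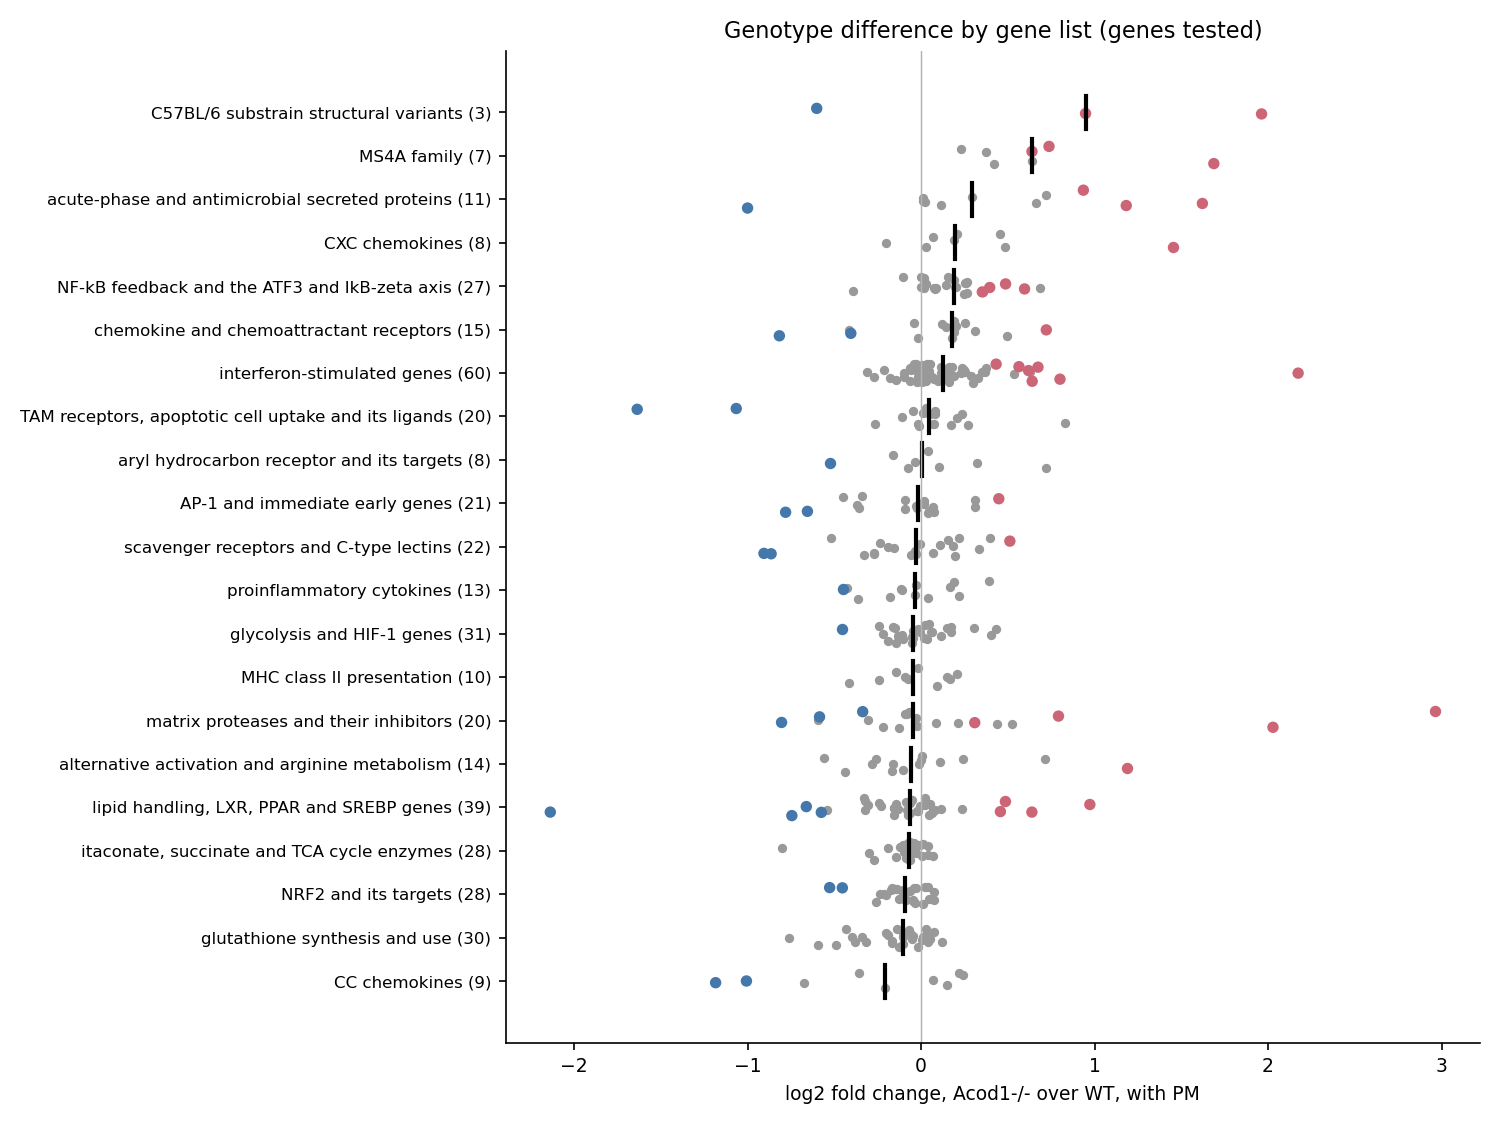
Log2 fold change of Acod1-/- over WT BMDMs with PM for the members of 21 gene lists, with the number tested in brackets; red and blue points passed an adjusted p of 0.05, grey points did not, and black bars are the medians. Most members of every large list lie within 0.5 of 0, and single members such as Mmp9, Cxcl1, Axl and Gdf3 stand away from their list.

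Further genes were named by the size of their change. The largest decrease was that of Lrmda, a leucine-rich repeat gene of pigment cell differentiation on the same chromosome as Acod1, at 19.4 and 22.2 CPM in WT and 1.73 and 1.24 CPM in Acod1-/- BMDMs (log2 fold change -3.81, SE 0.25, adjusted p = 5.68e-05; chromosome 14, 22019712 to 23056085, forward strand). The Acod1-/- libraries held 59 and 43 counts against 681 and 770 in WT. Acod1-/- replicate 2 was below 1.5 CPM, so that the filter of CPM above 1.5 in all 4 PM libraries excludes Lrmda. Lsp1, an actin-binding protein of leukocytes, was at 65.3 and 80.8 CPM in WT and 32.5 and 31.4 CPM in Acod1-/- BMDMs (log2 fold change -1.19, SE 0.09, adjusted p = 0.000205). Plxdc2, a transmembrane protein, was at 22.3 and 22.2 CPM in WT and 8.33 and 9.86 CPM in Acod1-/- BMDMs (log2 fold change -1.29, SE 0.10, adjusted p = 0.000258). Plod2, a lysyl hydroxylase for collagen (log2 fold change -1.36, SE 0.12, adjusted p = 0.000476), the orphan receptor gene Gprc5b (log2 fold change -1.21, SE 0.11, adjusted p = 0.000630) and Matn2, a matrix protein (log2 fold change -1.13, SE 0.11, adjusted p = 0.000630), each overlap another gene. Among increases, H2-M2, a nonclassical MHC class I gene, was at 30.7 and 22.7 CPM in WT and 65.3 and 55.4 CPM in Acod1-/- BMDMs (log2 fold change 1.18, SE 0.16, adjusted p = 0.00499) and had almost no counts with vehicle, at 0.322 and 0.537 CPM in WT and 0.658 and 0.668 CPM in Acod1-/- BMDMs. For H2-M2 the adjusted p was 0.0690 without Acod1-/- replicate 1. AW112010, a transcript induced in activated macrophages, was at 20.6 and 23.0 CPM in WT and 49.9 and 42.6 CPM in Acod1-/- BMDMs (log2 fold change 1.09, SE 0.11, adjusted p = 0.00122). Rab4a, a GTPase of recycling endosomes, was at 4.10 and 5.07 CPM in WT and 12.2 and 12.02 CPM in Acod1-/- BMDMs (log2 fold change 1.40, SE 0.14, adjusted p = 0.000934), and Adgre4, an adhesion receptor related to F4/80, at 6.44 and 5.13 CPM in WT and 13.3 and 13.1 CPM in Acod1-/- BMDMs (log2 fold change 1.19, SE 0.13, adjusted p = 0.00159). Dnaaf3 rose (log2 fold change 1.33, SE 0.11, adjusted p = 0.000288) and overlaps Tnni3 and Gm15873.

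The remaining DEGs were mostly of low level and were named after their values were seen. Gm42031 had the largest difference of all genes tested, with 3 and 7 counts in WT against 126 and 166 counts in Acod1-/- BMDMs (log2 fold change 4.85, SE 0.31, adjusted p = 5.07e-05). It was below 1.5 CPM in both WT libraries, so that it was tested through the Acod1-/- libraries alone. The filter of CPM above 1.5 in all 4 PM libraries, which left 37 DEGs, excludes it. Camk2b, a calcium-dependent kinase, was at 1.82 and 1.99 CPM in WT and 7.51 and 7.16 CPM in Acod1-/- BMDMs (log2 fold change 1.94, SE 0.11, adjusted p = 4.31e-05), and Sult1a1, a sulfotransferase, at 1.99 and 2.19 CPM in WT and 6.57 and 6.24 CPM in Acod1-/- BMDMs (log2 fold change 1.61, SE 0.15, adjusted p = 0.000565). Other increases were those of Btbd11 (1.88), 3830403N18Rik (1.83), Arhgef18 (1.38), Efcab7 (1.22), Adamts1 (1.18), Mill2 (1.17), Tmem176a (1.03) and Ssc5d (1.01).

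Among the decreases, Slco4a1, an organic anion transporter, was at 4.22 and 4.55 CPM in WT and 1.32 and 0.690 CPM in Acod1-/- BMDMs (log2 fold change -2.13, SE 0.23, adjusted p = 0.00134), Fam20a, a pseudokinase of the secretory pathway, at 2.28 and 2.65 CPM in WT and 0.557 and 0.518 CPM in Acod1-/- BMDMs (log2 fold change -2.19, SE 0.18, adjusted p = 0.000535), and Notch4 at 5.04 and 4.27 CPM in WT and 1.17 and 1.47 CPM in Acod1-/- BMDMs (log2 fold change -1.81, SE 0.15, adjusted p = 0.000268). Slco4a1, Fam20a and Notch4 were below 1.5 CPM in both Acod1-/- libraries, so that they were tested through the WT libraries alone. The filter of CPM above 1.5 in all 4 PM libraries excludes them. F13a1, a clotting factor chain of macrophages, was at 20.2 and 17.99 CPM in WT and 8.09 and 9.35 CPM in Acod1-/- BMDMs (log2 fold change -1.13, SE 0.15, adjusted p = 0.00364). Arhgap24, a regulator of small GTPases, was at 16.7 and 16.0 CPM in WT and 8.06 and 6.93 CPM in Acod1-/- BMDMs (log2 fold change -1.13, SE 0.10, adjusted p = 0.000404), and Igf2bp3, an RNA-binding protein, at 12.5 and 10.5 CPM in WT and 5.63 and 5.49 CPM in Acod1-/- BMDMs (log2 fold change -1.05, SE 0.12, adjusted p = 0.00158). Trem1, an amplifier of inflammatory signals, fell (-1.31), as did Stat4 (-1.20), Hpgd, which inactivates prostaglandins (-1.08), Bdh1 (-1.48), Cmtm8 (-1.70), Tmem82 (-1.27), Fam124a (-1.14), Rhod (-1.09), Sh2d1b1 (-1.05) and Clec2i (-1.03). The protease inhibitors Serpinb1a (log2 fold change -1.03, SE 0.14, adjusted p = 0.00440) and Serpinb1c (log2 fold change -1.33, SE 0.13, adjusted p = 0.000677) are close relatives, and for Serpinb1a the adjusted p was 0.0618 without Acod1-/- replicate 2. A further DEG, ENSMUSG00000094114.1, had no symbol in the annotation used (-1.71). In each of the 4 analyses without a library 38 to 47 of the 59 DEGs kept their call, and 0 changed sign. The loss was of the adjusted p or of the 2-fold size. Tmem82, Gm42793, Tmem176a, Ssc5d, Adamts1 and Rhod lost their call whichever library was left out. In addition, without WT replicate 1 it was lost for Sh2d1b1, Efcab7, Igf2bp3, Clec2i, Cmtm8 and Btbd11. Without WT replicate 2 it was lost for Stat4, Cp, Spp1, Mill2, Hpgd, Btbd11, Ccl2, Cd300lf, Serpinb1a, Fam124a, Bdh1, H2-M2 and Trem1. Without Acod1-/- replicate 1 it was lost for Stat4, Cp, Efcab7, Clec2i, Mill2, Hpgd, Cmtm8, Ccl2, Ccl7, F13a1, Fam124a, Bdh1, H2-M2, Trem1 and AW112010. Without Acod1-/- replicate 2 it was lost for Efcab7, Spp1, Flt1, Arhgef18, Hpgd, Cmtm8, Btbd11, Ccl2, Ccl7, Cd300lf, Serpinb1a, Fam124a, Bdh1 and Trem1.

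Against 0.543% of all genes, DEGs were 8 of 830 genes tested on chromosome 7, 6 of 715 on chromosome 5, 6 of 918 on chromosome 11 and 0 of 362 on chromosome 12. Chromosome 14, which carries Acod1, held 2 of 359, Lrmda and Fam124a. Of 18 genes tested within 5 Mb of Acod1, Ednrb, an endothelin receptor, rose (log2 fold change 0.59, SE 0.13, adjusted p = 0.0423) and the other 17 did not pass, so that 5.56% changed, against 2.46% of all genes tested. For Ednrb the adjusted p was 0.0624 to 0.258 whichever library was left out, and it did not pass with total count scaling.

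Of 5 listed genes known to differ in structure between C57BL/6 substrains, 3 were tested. All 3 differed between these genotypes (100%, against 2.46% of all genes tested). Nnt, a mitochondrial transhydrogenase gene that lacks exons in C57BL/6J, was at 33.1 and 33.0 CPM in WT and 64.1 and 63.4 CPM in Acod1-/- BMDMs (log2 fold change 0.95, SE 0.06, adjusted p = 5.07e-05). Wdfy1 was at 16.9 and 12.9 CPM in WT and 55.6 and 60.5 CPM in Acod1-/- BMDMs (log2 fold change 1.96, SE 0.12, adjusted p = 5.07e-05), and its exons overlap those of Mrpl44. Ide, insulin-degrading enzyme, was at 128 and 114 CPM in WT and 79.3 and 80.5 CPM in Acod1-/- BMDMs (log2 fold change -0.60, SE 0.09, adjusted p = 0.00796), and the adjusted p was 0.0514 without WT replicate 1, 0.0810 without Acod1-/- replicate 1 and 0.0757 without Acod1-/- replicate 2. With vehicle the log2 fold changes were 0.96 for Nnt, 2.16 for Wdfy1 and -0.50 for Ide, each past the threshold. Genetic background and the Acod1 allele cannot be told apart in this design, for these genes or for any other.

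The same genotype difference was measured in the vehicle libraries, whose means the PM contrast did not use, although they shared its estimate of the spread. All 59 DEGs had the same direction there without overlap of the libraries. Of all genes tested, 58.7% had no overlap with vehicle, in either direction. Of the 59 DEGs, 44 changed with vehicle in the direction they had with PM, and 33 were DEGs there. In either direction, 1.77% of all genes tested changed with vehicle and 0.423% were DEGs. The deviations of the WT libraries from their group mean were correlated between PM and OI with PM by replicate number (0.80). With OI and PM, 58 of 59 had the same direction, and at 53 the libraries of the genotypes did not overlap in that direction. Of all genes tested, 53.1% had no overlap there, in either direction. Of the 59 DEGs, 42 changed with OI and PM in the direction they had with PM, and 35 were DEGs there. In either direction, 6.85% of all genes tested changed with OI and PM and 0.763% were DEGs. The difference was called at 2-fold in all 3 treatments for 22 genes. The median size of the log2 fold change of the 59 DEGs was 1.29 with PM, the contrast that chose them, and in the same direction 1.16 with vehicle and 1.24 with OI and PM. Of the 268 genes that changed with PM, 261 had the same direction with vehicle, where 132 changed, and none changed in the opposite direction. With OI and PM 259 had the same direction and 168 of them changed. Zfp36 changed in the opposite direction there (-0.28, adjusted p = 0.0241).

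**Figure D5:**
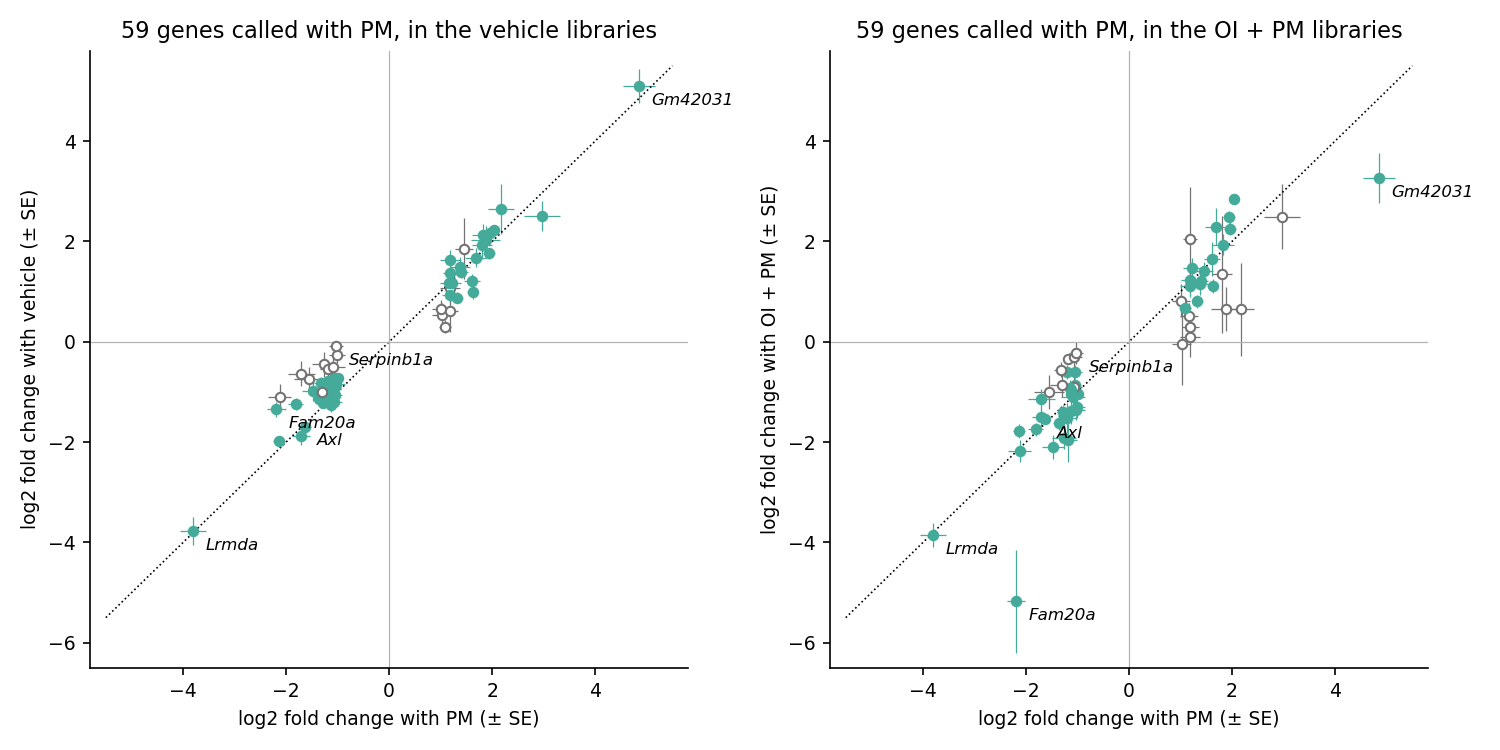
Log2 fold change of Acod1-/- over WT BMDMs for the 59 DEGs with PM (horizontal axis) against that with vehicle (left) or with OI and PM (right), with standard errors; filled points passed an adjusted p of 0.05 on the vertical axis and the dotted line marks equality. All 59 points have the same sign on both axes in the left panel, and 58 in the right.

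Examples of genes with the difference in every treatment were Mmp9 (log2 fold change 2.03 with PM, 2.24 with vehicle and 2.84 with OI and PM), Lrmda (-3.81, -3.78 and -3.86), Axl (-1.64, -1.69 and -1.54), Gdf3 (-2.14, -1.99 and -1.78) and Camk2b (1.94, 1.76 and 2.48). Each passed the threshold in all 3. Saa3 was higher in each treatment as well (1.62, 0.99 and 1.12). Cxcl1 passed with PM and with OI and PM (1.40) and not with vehicle (1.85, adjusted p = 0.258), where its counts were few. Ccl2 was at -0.27 with vehicle (adjusted p = 0.722) and Ccl7 at -0.54 (adjusted p = 0.192). With OI and PM both were lower and past the threshold, Ccl2 at -1.30 (adjusted p = 0.0115) and Ccl7 at -1.954 (adjusted p = 0.0304). The level of Ccl7 there was low, at 0.810 and 1.61 CPM in WT and 0.392 and 0.216 CPM in Acod1-/- BMDMs. Nqo1 was lower with vehicle (-0.71, adjusted p = 0.0209) and with OI and PM (-0.53, adjusted p = 0.00778). Tmem176a had the opposite sign with OI and PM (-0.05), at a level below 1 CPM in each of those libraries.

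Whether the genotype difference itself depended on PM was tested by the interaction of genotype and PM. In edgeR 0 of 10875 genes passed an adjusted p of 0.05, and 257 had an unadjusted p under 0.05, of which 13 were among the 59 DEGs. The interaction contains the PM difference by which the DEGs were chosen, so that nothing is read from the 13. The smallest unadjusted p belonged to Gbp2, which was at 15.0 and 14.7 CPM in WT and 13.96 and 13.7 CPM in Acod1-/- BMDMs with vehicle. Its genotype difference was -0.11 with vehicle and 0.67 with PM (interaction 0.78, SE 0.12, unadjusted p = 0.000106). Next were Serpinb1a (interaction -0.94, unadjusted p = 0.000379), Plk2, a kinase (-0.35, 0.000772), Mmp8, a collagenase of neutrophils and macrophages (0.67, 0.000781), and Acsl1, an acyl-CoA synthetase (0.46, 0.000821). Mmp8 was lower in Acod1-/- BMDMs with vehicle (-0.98, adjusted p = 0.00115), while with PM it was at 328 and 301 CPM in WT and 255 and 253 CPM in Acod1-/- BMDMs (-0.31, adjusted p = 0.163). DESeq2 on the 12 libraries called 5 genes in this interaction, Gbp2, Tnfaip2, Tgfbi, Plk2 and Rtp4. Between PM and OI with PM the genotype difference changed at 0 genes in edgeR, with 691 at an unadjusted p under 0.05 and a smallest adjusted p of 0.0891, shared by 5 genes, Mmp9, Zfp36, Kif23, Nanos1 and F630028O10Rik.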

How the data were processed

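RNA of 12 libraries, 2 per group, was read from a single end over 50 bp. Per the study's methods and the submitters' processing notes, the authors checked the reads with FastQC 0.11.5, mapped them to GRCm38 with STAR 2.5.3a, assessed them with Picard 2.9.0 and counted them with featureCounts. What the authors deposited are unnormalized counts for each gene. The annotation release and the settings for strand and multiply mapping reads are not given in the sources used here. Groups came from the deposited labels.

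Genes with CPM above 1.5 in at least 2 of the 4 PM libraries were kept. Counts of all 12 libraries were fitted with edgeR 4.0.16 (TMM, glmQLFit, glmQLFTest; R 4.3.3) with a mean for each of 6 groups, and p-values were adjusted by Benjamini-Hochberg over 10875 genes. CPM in the text are TMM-normalized. Standard errors were obtained by dividing the absolute log2 fold change by the root of the F statistic. The members and gene lists were chosen with earlier results of these data known. Named genes are Acod1 and genes the study measured, the 10 largest increases and decreases among DEGs of at least 5 CPM whose libraries did not overlap between the genotypes, DEGs of a list, the 2 members per list and direction with the smallest p, the 5 genes of smallest interaction p, Nnt, Wdfy1, and called genes within 5 Mb of Acod1. Other genes are named for comparison, chosen after their values were seen. A few genes that the rule or lists include are not reported here. Names and positions came from GENCODE for GRCm38, in which 10862 of the genes tested were found.

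The alternatives were DESeq2 1.42.0 on 12 or 4 libraries, edgeR on 4 libraries, RLE scaling, scaling to total counts, a minimum sum of 10 counts or CPM above 1.5 in all 4 libraries as filters, glmTreat, no fold threshold, a replicate block, a gene length offset (lowess, span 0.3), both together, and leaving out each PM library. A block with the numbers of the Acod1-/- PM libraries exchanged was added after the data were seen. Where a library was left out, the lone library of its arm was assumed to vary like the other groups. Replicates of a group differed by more than sampling noise, and 2 libraries per group limit the precision.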

Additional observations from a re-analysis of the deposited data

How the results depend on the processing

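The count of 59 DEGs was 54 to 62 under DESeq2, edgeR on 4 libraries, the other scalings, the blocks and the length corrections, and 76 with the filter of at least 10 counts, which tested more genes. It was 37 with CPM above 1.5 in all 4 libraries, with 15 higher and 22 lower, of which 19 were also called with vehicle and 22 with OI and PM. It was 10 with glmTreat, 5 in each direction. Without the fold threshold it was 268, with 121 higher and 147 lower, and 132 and 168 of these changed the same way with vehicle and with OI and PM. With a library left out it was 43 to 56, and those also called with OI and PM numbered 23 to 34, the lowest without Acod1-/- replicate 1. The interaction of genotype and PM gave 5 genes with DESeq2. The Acod1 difference was -0.90 to -0.71 with a library left out, at an adjusted p of up to 0.447, and passed the threshold with DESeq2 on 12 libraries (-0.79, adjusted p = 0.00954), DESeq2 on 4 libraries (-0.80, adjusted p = 2.30e-08), edgeR on 4 libraries (-0.80, adjusted p = 0.00406), the length correction (-0.77, adjusted p = 0.0222), that correction with the replicate block (-0.77, adjusted p = 0.0221) and the exchanged block (-0.81, adjusted p = 0.0206). No named gene past the threshold changed sign. Tnf and Nfe2l2, which did not pass, were at 0.00 and 0.02 without Acod1-/- replicate 2, and the medians of several lists near 0 changed sign, among them those of the TCA cycle, cytokine, glycolysis, MHC class II, AP-1, aryl hydrocarbon receptor, protease and scavenger receptor lists.

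The deviations of WT and Acod1-/- PM libraries of the same replicate number were correlated at -0.47. The replicate difference followed exonic length with opposite sign in WT (0.62) and Acod1-/- BMDMs (-0.37), so that this correlation cannot tell whether the libraries were paired. The deviations of WT libraries were correlated at 0.80 between PM and OI with PM and at 0.29 between PM and vehicle. The other pairs examined lay between -0.11 and -0.05. The replicate block gave 57 DEGs and the exchanged pairing 58. Of the values for single genes and list medians with a library left out, 73 fell short of the threshold and 4 moved by more than the replicate spread, against 263 that did neither. Under the other settings 23 fell short of the threshold, 9 newly passed it and 1 moved, against 898. On the 4 libraries alone Il16, Zfp36, Mmp12, Egln3 and Batf did not pass in either DESeq2 or edgeR, Ccr2 did not in DESeq2, and Ccr1, Pltp, Mylip, Junb and Acsl1 did not in edgeR. At a depth of 34009208 to 35022765 counts, Il6 and Nos2 stayed below the filter of 1.5 CPM. Their counts were above the alternative filter of at least 10 counts, and their results under it are not reported here.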
